A study of Saccharomyces cerevisiae with 4 samples.

Results

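The genes described here encode the 26S proteasome of budding yeast, with 14 subunits of its 20S core and 18 of its 19S cap, together with RPN4 (YDL020C), the transcription factor that drives them. SEM1, a further small subunit of the lid, is not among the 32 and is described with the associated factors. They were taken from the count tables by their ORF names. All 33 were listed among the 6348 ORFs, and all 33 passed the filter on low counts that left 5680 genes for testing. Poly(A) RNA came from the isogenic strains L6437, a MATa haploid, and L6440, a MATaaaa tetraploid, both of the Σ1278b background with ura3-52, leu2::hisG and his3::hisG alleles. Both were grown to mid-log phase at 30°C in synthetic complete medium with 2% glucose. Each ploidy is represented by 1 strain and 2 cultures, and haploid A and tetraploid A form pair A as haploid B and tetraploid B form pair B. Where a ploidy has 2 values, culture A is given before culture B. The comparison asks which transcripts change in relative abundance with ploidy and the cell size that goes with it.

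The proteasome degrades proteins that carry ubiquitin chains. Its 20S core is a barrel of stacked alpha and beta rings with the proteolytic sites inside, and its 19S cap binds the chains, removes the ubiquitin, unfolds the substrate and feeds it into the core. The cap consists of a base, which holds the ring of RPT ATPases, and a lid. Rpn4, a zinc finger protein, activates most proteasome genes through a shared promoter element and is itself a short-lived substrate of the proteasome, so that its level rises when degradation is slow. Transcripts of the subunits therefore tend to be regulated together in yeast.

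The libraries held between 3612527 and 4133193 reads on ORFs, of which 37.0% to 43.7% fell on ORFs within the ribosomal DNA repeats. Counts were scaled with TMM factors and are given as CPM, a count relative to a fixed total of scaled reads per library. They measure a transcript relative to the rest of its library, so a change per cell that all transcripts shared would not show. All 6 markers of a cells (STE2, STE6, MFA1, MFA2, BAR1 and AGA2) were present in each library and were called lower in tetraploids, whereas the alpha-cell markers MFALPHA1 and MFALPHA2 had at most 13 reads in any library, and STE3 and SAG1 between 28 and 61. The log2 fold changes of the 6 a-cell markers ran from -2.43 to -1.59.

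Proteasome transcripts were abundant in both ploidies. Per kilobase of coding length, the median subunit stood at 135 CPM in haploids and 146 in tetraploids, against 23.3 in both ploidies for the 5292 tested genes with a known coding length. Coding lengths were those of the reference assembly R64, which is of another strain. PUP3 (YER094C), a structural beta subunit, had the highest level, at 368 CPM per kb in haploids and 366 in tetraploids. The lowest belonged to lid subunits. RPN6 (YDL097C), a scaffold that braces the lid against the core, stood at 68.1 and 80.3 CPM per kb, and RPN12 (YFR052W), the last subunit to join the lid, at 69.3 and 57.6. The 20S transcripts had a median of 170 CPM per kb in each ploidy, the 6 RPT transcripts 146 and 162, and the 8 lid transcripts 83.8 and 98.4. The span from the lowest to the highest subunit was 5.40-fold in haploids and 6.35-fold in tetraploids. The order of the subunits was nearly the same in both ploidies, with a Spearman's rho of 0.93 across the 32 transcripts, which share their libraries and are not replicates. RPN4 was far below its targets, at 28.1 CPM per kb in haploids and 28.2 in tetraploids.

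**Figure D1:**
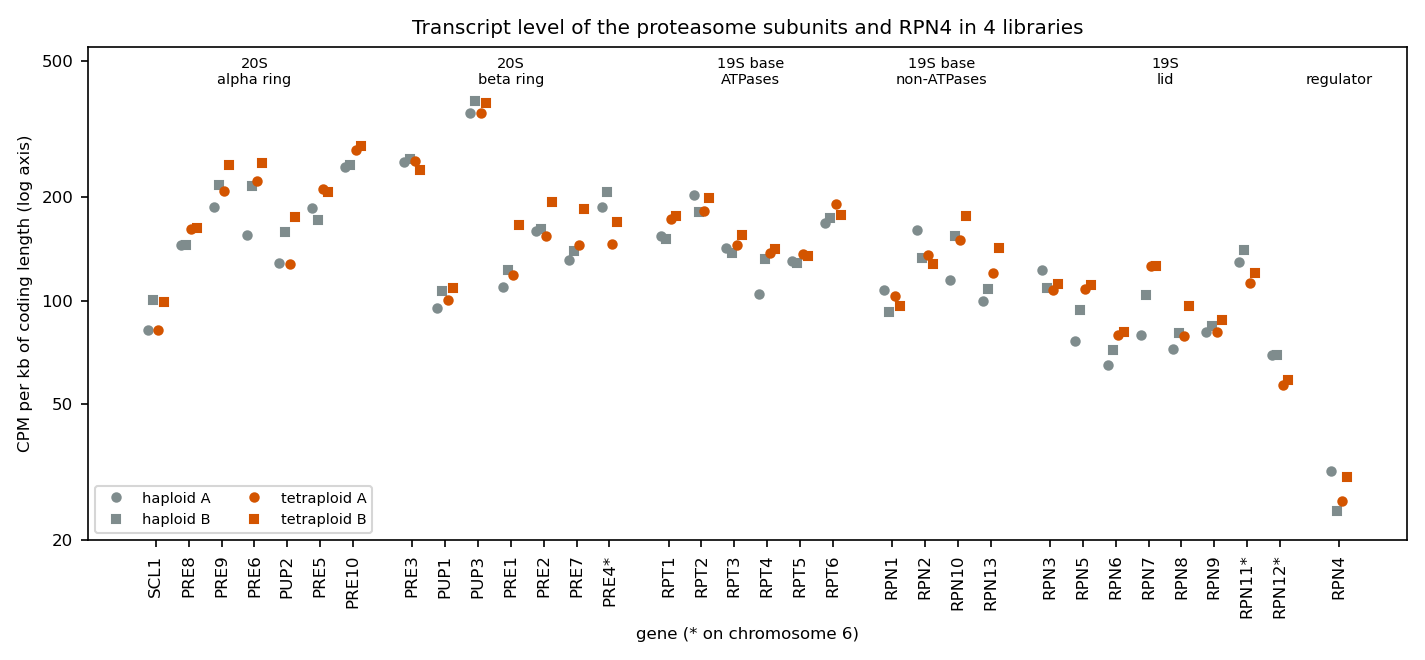
Transcript levels of the 32 subunits and RPN4 in each of the 4 libraries, in CPM per kb of coding length on a log axis, with genes grouped by their place in the complex. PUP3 stands highest at 368 in haploids, RPN4 lowest at 28.1, and the 3 genes of chromosome 6 (PRE4, RPN11 and RPN12, starred) have both tetraploid points below both haploid points.

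The transcripts of the proteasome as a whole differed little between haploids and tetraploids. The 32 subunits summed to 4709 and 4851 CPM in the haploid libraries and to 4939 and 5222 CPM in the tetraploid ones. The tetraploid sums were thus above both haploid sums, by a small margin. Of the reads outside the ribosomal DNA, the subunits held 0.702% and 0.834% in haploids and 0.863% and 0.982% in tetraploids, where culture B of the haploids and culture A of the tetraploids were close. The median log2 fold change (tetraploid over haploid) of the 32 subunits was 0.11, against 0.01 for all tested genes. Pair A alone gave 0.10 and pair B 0.15. Single values ran from -0.32 for PRE4 to 0.47 for RPN7. The 95% confidence intervals of these 32 lay between -0.58 and 0.75, while that of SEM1, not counted here, reached 0.96.

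Only 1 of the 32 subunits, RPN7, was called different between ploidies. It was higher (quasi-likelihood test of edgeR, blocked by pair, Benjamini-Hochberg adjusted p under 0.05), as were 2.52% of all tested genes, and 0 subunits were called lower, against 5.35% of all. At an unadjusted p under 0.05 the same test gave 6 higher and 1 lower, against 600 and 806 of all 5680 tested genes. DESeq2 called 0 subunits, against 23 higher and 133 lower of all tested genes. At an unadjusted p under 0.05 it gave 1 subunit higher, with no count over all tested genes to set beside it. In the direction of the pairs, both pairs put the tetraploid higher for 19 of 32 subunits, against 34.6% of all tested genes, and lower for 4, against 33.7%. For 14 subunits both tetraploid libraries lay above both haploid libraries, against 21.9% of all tested genes, and for 3 they lay below, against 20.5%. These 3 were the subunits encoded on chromosome 6.

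The number of called subunits depended on the scaling. Dividing by total counts instead of TMM factors called 19 of 32 subunits higher, against 20.6% of all tested genes, and dividing by the counts outside the ribosomal DNA called 8, against 6.51%. These scalings moved the median of all tested genes to 0.30 and 0.19 on the log2 scale. The median of the subunits stood 0.10 above that of all genes under each of the 3 scalings. A scaling moves all genes nearly alike, so this gap could hardly differ and is no check of it.

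**Figure D2:**
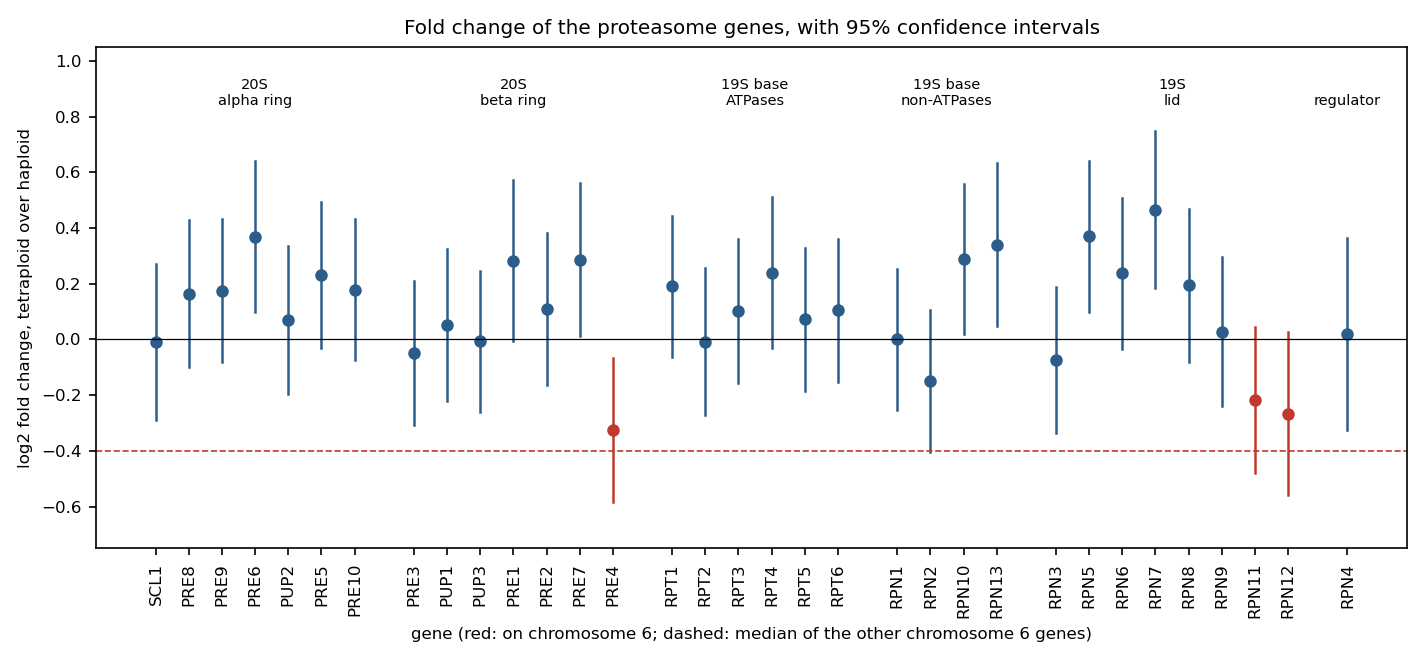
Log2 fold change (tetraploid over haploid, TMM scaling) of the 32 subunits and RPN4, with 95% confidence intervals from edgeR. The intervals of 25 subunits include 0, as do those of 4274 of all 5680 tested genes. RPN7 is highest at 0.47. The red points of chromosome 6 are the lowest 3, at -0.32, -0.27 and -0.22. They lie between 0 and the dashed line at -0.40, which marks the median of the other chromosome 6 genes. Under total counts RPN11 and RPN12 are above 0, at 0.070 and 0.020, and the median of all genes is 0.30.

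In the alpha ring, which forms the outer surface and the gate of the core, none of the 7 transcripts was called, and 6 had a log2 fold change above 0 (median 0.18). PRE6 (YOL038W) had the largest value. It stood at 119 and 165 CPM in haploids and at 170 and 193 CPM in tetraploids. The ploidies did not overlap (log2 fold change 0.37, standard error 0.13, adjusted p = 0.086), but the haploid cultures differed from each other by more, 0.47 on the log2 scale. PRE10 (YOR362C) had 213 and 215 CPM in haploids and 239 and 245 in tetraploids, a narrow spread and a small difference (log2 fold change 0.18, adjusted p = 0.374). PRE8 (YML092C) behaved alike, with 109 CPM in each haploid and 122 and 123 in tetraploids. For PRE5 (YMR314W) the tetraploid libraries were also above the haploid ones (log2 fold change 0.23, adjusted p = 0.256), whereas those of PRE9 (YGR135W), the one alpha subunit yeast can live without, overlapped (0.18). PUP2 (YGR253C) and SCL1 (YGL011C) were close to 0, at 0.07 and -0.01.

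In the beta ring, which carries the proteolytic sites, none of the 7 was called either (median 0.05). The catalytic subunits differed little. PRE3 (YJL001W), with caspase-like activity, had 164 and 168 CPM in haploids and 166 and 156 in tetraploids. Its log2 fold change was -0.05 with a 95% confidence interval from -0.31 to 0.21. PUP1 (YOR157C), with trypsin-like activity, had a value of 0.05 (-0.22 to 0.32), and PRE2 (YPR103W), with chymotrypsin-like activity, 0.11 (-0.16 to 0.38). The libraries of the 2 ploidies overlapped for all 3 catalytic subunits. Among the structural subunits, PUP3 was at -0.01, while PRE1 (YER012W) and PRE7 (YBL041W) reached 0.28 and 0.29 (adjusted p = 0.213 and 0.180). For both, tetraploid B had the highest of the 4 values. PRE7 had 95.3 and 101 CPM in haploids against 106 and 135 in tetraploids. PRE4 (YFR050C), the remaining beta subunit, lies on chromosome 6 and had the lowest value of the whole complex.

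In the base, the 6 ATPases that unfold substrates were the most uniform group, with a standard deviation over genes of 0.088 against 0.12 to 0.27 in the other groups. Of these, the beta ring (0.21) and the lid (0.27) include the subunits encoded on chromosome 6. The alpha ring (0.12) and the other base subunits (0.23) do not. Their log2 fold changes ran from -0.01 for RPT2 (YDL007W), which opens the gate of the core, to 0.24 for RPT4 (YOR259C), and none was called. In 5 of the 6 both tetraploid libraries were above both haploid libraries, against 21.9% of all tested genes. RPT5 (YOR117W) shows how small such a separation can be, with 170 and 168 CPM in haploids and 179 and 177 in tetraploids (log2 fold change 0.07, adjusted p = 0.753). RPT1 (YKL145W) was at 0.19, RPT6 (YGL048C) at 0.10 and RPT3 (YDR394W) at 0.10. Of the large scaffold subunits, RPN1 (YHR027C), a docking site for ubiquitin-like proteins, was at 0.00 and RPN2 (YIL075C) at -0.15, the lowest value outside chromosome 6. The ubiquitin receptors RPN10 (YHR200W) and RPN13 (YLR421C) were at 0.29 and 0.34 (adjusted p = 0.167 and 0.138). RPN13 had 46.8 and 50.8 CPM in haploids and 56.9 and 66.9 in tetraploids, with no overlap.

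The lid held both ends of the cap's range. RPN7 (YPR108W), a scaffold subunit that helps to hold the lid together, had 103 CPM in haploid A, 134 in haploid B and 163 in each tetraploid. Its tetraploid libraries were alike, and haploid A was the lowest of the 4. The log2 fold change was 0.47 (standard error 0.13, 95% confidence interval 0.18 to 0.75, adjusted p = 0.042). Pair A gave 0.66 and pair B 0.28. The call did not hold without the pair as a block (adjusted p = 0.529), with DESeq2 (0.175), without the filter on low counts (0.127) or among genes with a mean of at least 100 reads (0.069). RPN5 (YDL147W), a neighbouring scaffold subunit, had a similar profile, with 102 and 125 CPM in haploids and 145 and 148 in tetraploids (log2 fold change 0.37, adjusted p = 0.085). The scaffold subunits RPN6 (0.24), RPN9 (YDR427W, 0.03) and RPN3 (YER021W, -0.07) were not called. RPN8 (YOR261C), which pairs with the deubiquitinase Rpn11, was at 0.19 (adjusted p = 0.375). Rpn11 and Rpn12 are the lid subunits encoded on chromosome 6.

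Within the complex, the 3 subunits whose genes lie on chromosome 6 had lower log2 fold changes than the others, and with TMM factors they were below 0 (with total counts RPN11 and RPN12 were above 0). PRE4 had 150 and 166 CPM in haploids and 117 and 136 in tetraploids (log2 fold change -0.32, standard error 0.12, adjusted p = 0.112). RPN11 (YFR004W), the metalloprotease that cuts ubiquitin chains off substrates, had 120 and 130 CPM in haploids and 104 and 111 in tetraploids (-0.22, standard error 0.12, adjusted p = 0.292). RPN12 had 57.4 and 57.1 CPM in haploids and 46.8 and 48.3 in tetraploids (-0.27, standard error 0.14, adjusted p = 0.246). In each case the tetraploid libraries were below the haploid ones, yet none of the 3 was called. They held the lowest 3 places of the 32 subunits in the fit and in pair B, and places 1, 2 and 4 in pair A, where RPN2 took the third. A scaling of the libraries moves all genes nearly alike, so it could hardly change this order and is no check of it.

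Set against the other 29 subunits in the same library, the 3 transcripts shifted by the same amount in both pairs. The mean log2 CPM of the 3 minus that of the 29 was -0.38 and -0.39 in the haploids and -0.80 in each tetraploid. Between ploidies it moved by -0.42 (pair A) and -0.41 (pair B), a ratio of 0.747 and 0.753. As a share of all subunit reads, the 3 held 6.94% and 7.28% in haploids and 5.41% and 5.65% in tetraploids. The standard deviation between the 2 libraries of a ploidy was 0.0068 in haploids and 0.0021 in tetraploids. Each rests on 2 values of a mean over genes, so it says little about how far cultures vary. An exact permutation of 2 against 2 libraries cannot give a two-sided p below 0.333, and no other test of the shift was run. The median of the other 29 subunits was 0.16.

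The other 108 tested genes of chromosome 6 had a median log2 fold change of -0.40, with 95 of them below 0, against 2777 of all 5680 tested genes. The test called 29 of them (26.9%) lower, against 5.35% of all. The median of the 3 subunits, -0.27, lay above that of their chromosome. Likewise, the median of the other 29 subunits lay above that of all tested genes, though not every one of them did. Subunits from other chromosomes showed no such group. The 6 on chromosome 15 ranged from 0.05 to 0.37, the 5 on chromosome 4 from -0.01 to 0.37, the 4 on chromosome 7 from -0.01 to 0.18 and the 3 on chromosome 5 from -0.07 to 0.28. RPN2 on chromosome 9 was the only subunit outside chromosome 6 that was lower in the tetraploid in both pairs. DNA copy number was not measured in these files, and its part in the values of chromosome 6 was not tested.

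**Figure D3:**
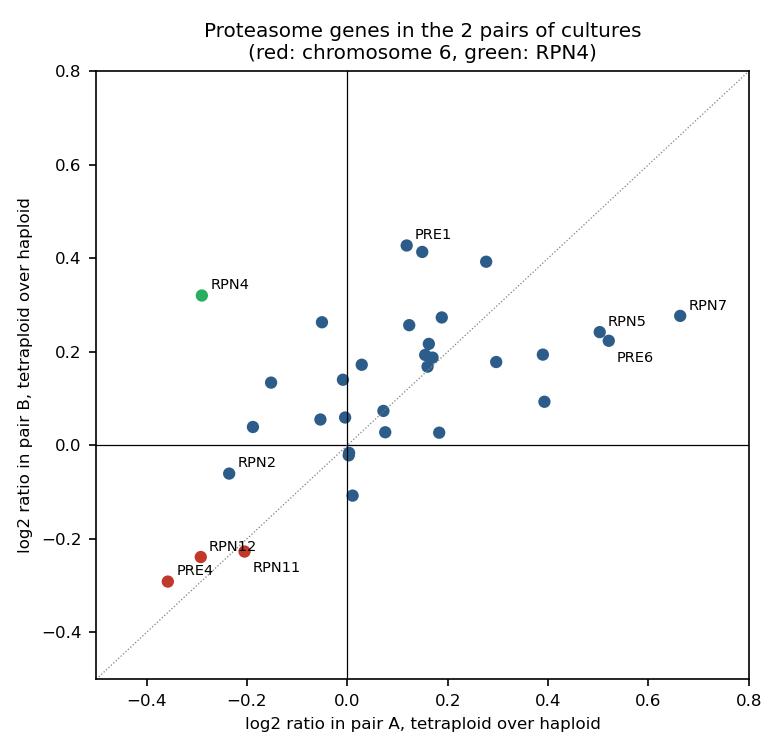
Log2 ratio of tetraploid to haploid in pair A (horizontal axis) and pair B (vertical axis) for the 32 subunits and RPN4, with equal values on the dotted line. The 3 genes of chromosome 6 lie together at the lower left, RPN7 lies farthest right at 0.66 in pair A, and RPN4 is the point at -0.29 (pair A) and 0.32 (pair B).

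RPN4 itself was not called, and its pairs went opposite ways. It had 50.7 and 38.9 CPM in haploids and 41.4 and 48.7 in tetraploids. The highest and the lowest values were thus both haploid. The log2 fold change was 0.02 (standard error 0.16, 95% confidence interval -0.33 to 0.36, adjusted p = 0.955). Pair A gave -0.29 and pair B 0.32. Culture B minus culture A was -0.38 on the log2 scale in haploids and 0.23 in tetraploids. Between the same libraries the medians of the subunits were 0.10 and 0.09, so that they had the sign of RPN4 in tetraploids and the opposite sign in haploids. Culture B was higher for 22 of the 32 in haploids and 25 in tetraploids, against 2974 and 2845 of all 5680 tested genes. RPN4 had 137 to 233 reads per library. Its standard error was larger than that of any subunit, 0.12 to 0.14, and the cause was not tested.

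The known regulators of RPN4 gave 1 call (higher) among 7 genes, against 2.52% higher and 5.35% lower of all tested genes. YAP1 (YML007W), the activator of the oxidative stress response that also acts on the RPN4 promoter, rose from 59.0 and 76.4 CPM in haploids to 87.4 and 104 in tetraploids. The ploidies did not overlap (log2 fold change 0.51, standard error 0.13, adjusted p = 0.028). The call did not hold without the pair as a block (adjusted p = 0.525), with DESeq2 (0.209) or without the filter on low counts (0.091). PDR1, the regulator of drug resistance genes, was at 0.36 (adjusted p = 0.124) and HSF1, the heat shock factor, at 0.22 (adjusted p = 0.375). PDR3, a homologue of PDR1, had the lowest value of the list at -0.21, from at most 42 reads per library. UBR2, MUB1 and RAD6, whose products tag Rpn4 with ubiquitin, were at 0.16, -0.05 and -0.11, and none was called.

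Among 16 assembly chaperones and associated factors, edgeR called 0, against 2.52% higher and 5.35% lower of all tested genes. At an unadjusted p under 0.05 it gave 1 higher and 1 lower, against 600 and 806 of all 5680. The median log2 fold change was 0.05. The highest was SEM1 (YDR363W-A), a small lid subunit, at 0.58 (standard error 0.18, adjusted p = 0.054). It had 36.0 and 72.7 CPM in haploids and 76.6 and 82.3 in tetraploids. Haploid A alone stood apart, and the value was 1.08 with pair A only and 0.18 with pair B only. The lowest was BLM10 (YFL007W), an alternative cap of the core that is encoded on chromosome 6, with 141 and 140 CPM in haploids and 109 and 102 in tetraploids (log2 fold change -0.41, standard error 0.12, adjusted p = 0.056). The other factor from chromosome 6, the deubiquitinase UBP6 (YFR010W), was at -0.19 (adjusted p = 0.407). UMP1 (YBR173C), the chaperone that matures the core and a target of Rpn4, was at 0.00.

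The 24 genes of ubiquitin transfer and the Cdc48 segregase had a median of -0.02, with 11 above and 13 below 0. The test called 0 of them, against 2.52% higher and 5.35% lower of all tested genes. At an unadjusted p under 0.05 it gave 1 higher and 3 lower, against 600 and 806 of all 5680. The lowest was HRD1 (YOL013C), a ubiquitin ligase of the endoplasmic reticulum, at -0.49 (standard error 0.18, adjusted p = 0.096). The highest was the polyubiquitin gene UBI4 (YLL039C) at 0.31 (adjusted p = 0.132), a gene of repeats shared with other ubiquitin genes, so that its count is uncertain.

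**Figure D4:**
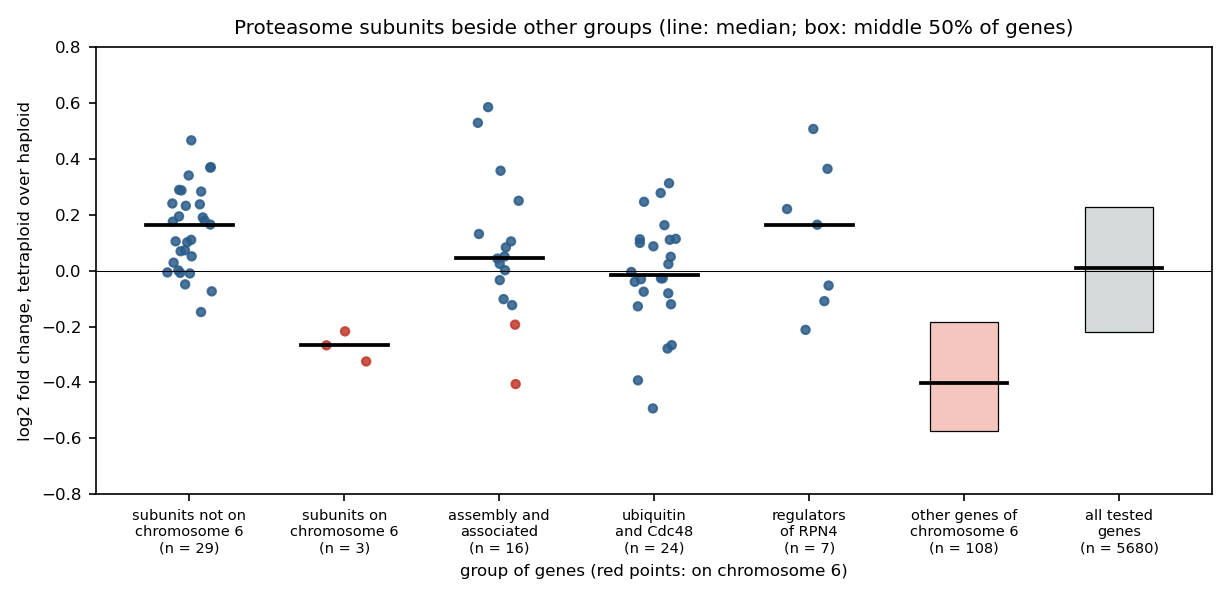
Log2 fold change (tetraploid over haploid, TMM scaling) of the subunits off and on chromosome 6 and of the 3 pathway lists, 1 point per tested gene with a line at the median, beside boxes of the middle 50% of the other chromosome 6 genes and of all 5680 tested genes. The 29 subunits have a median of 0.16 and the 3 of chromosome 6 one of -0.27, and both red points among the associated factors (BLM10 and UBP6) are below 0.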

How the data were processed

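Per the labels and the study's methods, poly(A) RNA was sequenced for 36 cycles on the Illumina Genome Analyzer 2. Reads were aligned by the authors to a Σ1278b assembly using Bowtie, and each library was deposited as raw read counts per annotated ORF, from both strands and without normalization. The lowest listed count was 2, and an unlisted ORF was taken as 0. A gene entered the test if each pair had a library with 15 or more of its reads. The test was edgeR 4.0.16 in R 4.3.3 (TMM factors, quasi-likelihood, blocked by pair as in the study's own pairwise comparison). Same-letter libraries deviated together (r = 0.53 across 5680 genes). Pair ratios used log2 CPM with a prior count of 2. A fold change's standard error is its size over the square root of F. The fit was tested on simulated data. DESeq2 1.42.0, other scalings, filters and left-out libraries were alternatives. The members and gene lists were chosen with earlier results of these data known. All 33 members, the genes called, on chromosome 6 or with the extreme values of each other list, and the mating-type markers are named. UMP1, PDR1, HSF1, UBR2, MUB1 and RAD6 fall outside that rule and were added after their values were seen. Names, coding lengths and overlaps came from the R64 assembly, which names 5746 of the 6348 ORFs. No member overlaps another gene annotated there, and ORFs it lacks were not checked. As R64 is of another strain, no coordinates or sequences are given.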

Additional observations from a re-analysis of the deposited data

How the results depend on the processing

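With 2 cultures per ploidy, small changes of single subunits were hard to detect. The number of called subunits was 1 with the pair as a block. It was 0 with no replicate block, with DESeq2, without a filter on low counts and among genes with a mean of at least 100 reads. With total counts on all ORFs and on those outside the ribosomal DNA it was 19 and 8. Over all tested genes, 4 higher and 18 lower of 5680 were called with no replicate block, and 23 and 133 with DESeq2. The calls were 12 and 87 of 6348 without the filter and 70 and 162 of 3076 with a mean of at least 100 reads. Fits without the block that left out 1 library treat the lone sample of a ploidy as varying like the other group, and their calls are not counted. At an unadjusted p under 0.05, edgeR gave 1 to 7 subunits higher and 0 or 1 lower in the alternatives with 4 libraries and TMM factors. The matching counts over all tested genes are not given for these fits, so no background stands beside these numbers. The median of the subunits was 0.11 with no replicate block, 0.40 and 0.29 with the 2 kinds of total counts, and 0.10 to 0.15 in the pair that remained without a library. That of the chromosome 6 subunits was 0.020 and -0.089 with the total counts, where the median of all genes was 0.30 and 0.19. RPN11 and RPN12 moved above 0, to 0.070 and 0.020, with total counts on all ORFs. RPN4 was -0.29 with pair A alone and 0.32 with pair B alone, the values left without a library of the other pair. The cause of these shifts was not tested. PRE4 stayed below 0 in all 10 alternatives, but at -0.037 and -0.15 with the 2 kinds of total counts. The alternatives with a library left out repeat the 2 pair ratios, -0.36 and -0.29, and are not separate checks. Leaving out the block ended the calls of RPN7 and YAP1 and changed none of PRE4, RPN11, RPN12 and RPN4, which were not called in either fit.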
